A study of Homo sapiens with 6 samples.

Results

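Transcripts encoded by mitochondrial DNA were examined in RNA-seq libraries of 22Rv1 cells, an established human prostate cancer line that carried the WT genotype in every group. The genes were selected by symbol, with earlier results of these libraries known, from a list of 10 (RNR1, RNR2, ND1, ND2, ND4, ND5, COX1, COX2, COX3 and CYTB). Of these 10, 2 were found among the 29804 symbols of the count table, RNR1 and RNR2, the genes of the mitochondrial ribosomal RNAs. The 8 protein-coding genes of the list had no row under these symbols, and rRNA was therefore not set against mRNA. Which earlier value led to the choice is not recorded, so all 3 comparisons of the groups were counted as used in it, and the values of RNR1 and RNR2 are given as a description without a test. The rows of the 22 mitochondrial tRNA genes, which were not on the list, were used as the other transcripts of the same genome.

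WT cells were untreated and were collected at week 0. AM cells, the age matched control, were grown for 6 weeks without drug. 6WP cells were grown for the same 6 weeks and exposed to phleomycin, a radiomimetic glycopeptide that breaks DNA, at 1 µg/ml for 1 hour on each week day. Each group had 2 libraries, described as biological replicates of this single line, and nothing in the sources used here says how early the replicate cultures were separated, so p-values measure the spread between these libraries. With 2 libraries against 2, an exact two-sided permutation test cannot give a p below 0.333, and tests were made only in a model fitted across all genes.

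Mitochondrial DNA carries the genes of 2 ribosomal RNAs, of 22 tRNAs and of 13 proteins of the respiratory chain and ATP synthase. Both strands are transcribed by the mitochondrial RNA polymerase POLRMT with its partners TFAM and TFB2M into long RNAs that span many genes. The tRNAs punctuate these RNAs and are cut out by RNase P at their 5′ ends and by ELAC2 at their 3′ ends, which also frees the rRNAs and mRNAs between them. RNR1 encodes the 12S rRNA of the small subunit of the mitochondrial ribosome and RNR2 the 16S rRNA of its large subunit, while all proteins of that ribosome come from nuclear genes. Prostate cancer cells draw on this system for respiration, and its RNAs are among the most abundant of most cells.

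Libraries held between 21222201 and 35311945 counts in total, and 3 counts, the smallest amount taken as detectable, equalled 0.0850 CPM in the deepest and 0.141 CPM in the shallowest library (CPM, the count relative to the library total, here before and otherwise after TMM scaling). This floor covers counting error only. All 11 of 11 prostate epithelial markers, among them KLK2 and KRT8, were above 1 CPM in every library, with sums from 2419 to 4099 CPM. Of 10 markers of other cell types, 7 were under 1 CPM in every library, with sums between 8.56 and 13.4 CPM. The replicates of 6WP stood further apart than those of the other groups, with a median absolute log2 difference of 0.278 over all 14672 tested genes against 0.121 in WT and 0.129 in AM.

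On hg38, RNR1 (MT-RNR1, ENSG00000211459.2) lies on the plus strand of the mitochondrial chromosome from base 648 to 1601, over 954 bases. RNR2 (MT-RNR2, ENSG00000210082.2) lies on the same strand from base 1671 to 3229, over 1559 bases. Between them is TRNV, the gene of the valine tRNA, with no base to spare on either side. This stretch, chrM:1582-1690 on the plus strand, is shown because it joins the members, with the end of RNR1 in lower case, TRNV in capitals and the start of RNR2 in lower case.
RNR1-TRNV-RNR2: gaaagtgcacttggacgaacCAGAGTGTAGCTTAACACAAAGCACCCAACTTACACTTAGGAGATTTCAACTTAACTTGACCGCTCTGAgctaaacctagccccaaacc
The row of TRNV held 0 counts in each WT and AM library and 1 count in each 6WP library, while RNR1 held at least 18709 counts and RNR2 at least 160046. Hardly any read was thus assigned to TRNV.

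RNR2 was among the most highly counted genes, ranking first in both AM libraries and second in the other libraries. It held 160046 and 165224 counts in WT, 170172 and 261291 in AM, and 162383 and 337866 in 6WP cells. After scaling these were 7145 and 7590 CPM in WT, 7327 and 7693 CPM in AM, and 5872 and 11907 CPM in 6WP. The 4 untreated libraries differed by at most 1.08-fold, while the 6WP libraries differed by 2.03-fold, replicate 1 below and replicate 2 above all untreated libraries. The mean of 6WP, 8889 ± 4267 CPM (SD, n = 2), had an SD more than 10 times that of WT, 7368 ± 315 CPM (n = 2), or AM, 7510 ± 259 CPM (n = 2).

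RNR1 showed the same arrangement at its own level. Its counts were 20112 and 21383 in WT, 22009 and 28133 in AM, and 18709 and 42073 in 6WP cells, and its rank by counts lay between 71 and 173. In CPM these were 898 and 982 in WT, 948 and 828 in AM, and 677 and 1483 in 6WP. The untreated libraries spanned 1.19-fold and the 6WP libraries 2.19-fold, again with the 6WP replicates on either side of every untreated library. The means were 940 ± 59.7 CPM in WT, 888 ± 84.4 CPM in AM and 1080 ± 570 CPM in 6WP (SD, n = 2 each). In these bulk RNA libraries, a change in mitochondrial RNA per cell and a change in how many cells carry more or less of it cannot be told apart.

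**Figure D1:**
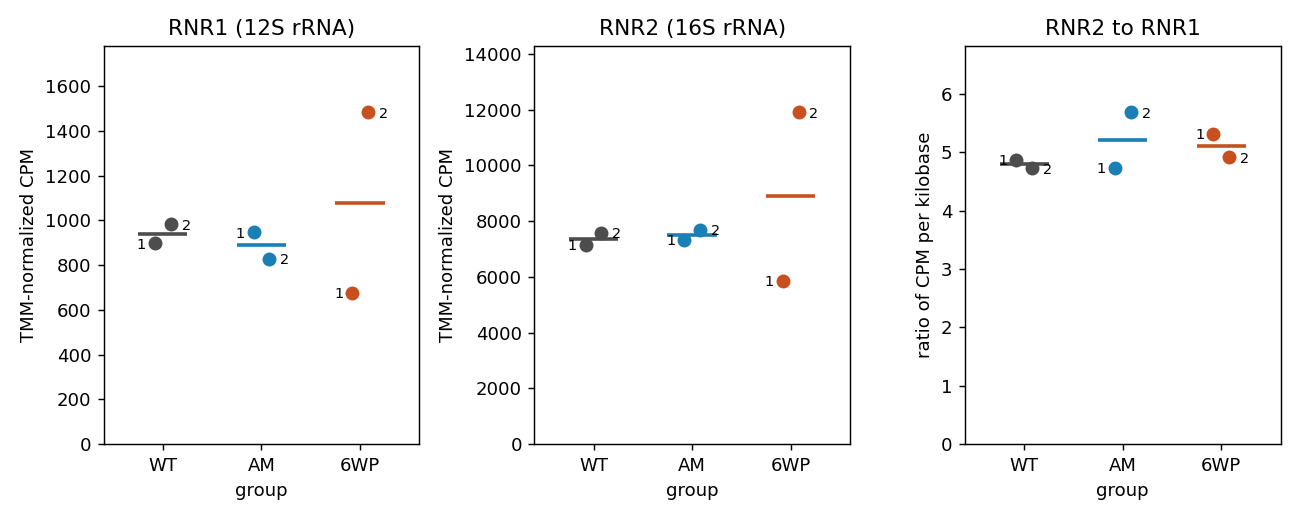
Levels of RNR1 and RNR2 in TMM-normalized CPM and the ratio of RNR2 to RNR1 in CPM per kilobase, for WT, AM and 6WP, with each point a library (numbered by replicate) and each bar a group mean. The 6WP libraries sit at 677 and 1483 CPM for RNR1 and at 5872 and 11907 CPM for RNR2, on either side of all untreated libraries, while the ratio stays between 4.73 and 5.68.

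Relative to the mean of WT, the log2 level of RNR1 was -0.47 in 6WP replicate 1 and 0.66 in 6WP replicate 2. That of RNR2 was -0.33 and 0.69, so the rRNAs of both ribosomal subunits stood low in the same library and high in the same library. Over all 24 mitochondrial rows, the share of the library's counts was 0.702% in 6WP replicate 1 and 1.35% in 6WP replicate 2, against 0.850% to 0.916% in the untreated libraries. These rows are of rRNA and tRNA genes, so the share leaves out mitochondrial mRNA. The gap between the 6WP replicates was 1.13 on the log2 scale for RNR1, and 4.16% of the 14672 tested genes were at least as far apart. For RNR2 the gap was 1.02, and 5.43% of genes were at least as far apart.

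The fitted difference of 6WP from WT was 0.20 on the log2 scale (SE 0.30) for RNR1 and 0.27 (SE 0.28) for RNR2, in the negative binomial quasi-likelihood model of edgeR. From AM, 6WP differed by 0.28 (SE 0.30) for RNR1 and by 0.24 (SE 0.28) for RNR2. AM differed from WT by -0.08 (SE 0.30) for RNR1 and by 0.03 (SE 0.28) for RNR2. Each of these 6 differences was smaller than its SE, and the group ranges overlapped in every comparison. The SEs rest on a spread per gene fitted to all 6 libraries, which includes the gap of the 6WP replicates. For AM against WT they are therefore not the spread of the untreated libraries alone. There the log2 gap of replicate 2 from replicate 1 was 0.13 in WT and -0.19 in AM for RNR1. For RNR2 it was 0.09 in WT and 0.07 in AM. At an adjusted p of 0.05 over all genes, 0 of 2 members were called in 6WP against WT, where 3.00% of 14672 genes were called. Between 6WP and AM 0 of 2 were called beside 21.3% of all genes, and in AM against WT 0 of 2 beside 17.7%. Since the members were chosen with these contrasts known, nothing is read from these counts.

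The fitted direction rested on a single 6WP library. Without 6WP replicate 2 the median difference of the 2 members turned to -0.43 against WT and to -0.41 against AM. Without 6WP replicate 1 the median was 0.66 against WT and 0.70 against AM. These values rest on 1 library of 6WP each and carry no test. The median over both members in the fit to all libraries was 0.24 against WT and 0.26 against AM, beside 0.01 and 0.05 over all tested genes.

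Between the 6WP libraries the balance of the rRNA counts differed less than their level, and between the AM libraries it differed more. This balance is one of counts and is not taken as the ratio of the rRNAs in cells. Whether poly(A) RNA was selected or rRNA depleted is not given in the sources used here. Per kilobase of gene, RNR1 stood at 941 and 1030 CPM in WT, 993 and 868 in AM, and 709 and 1554 in 6WP. RNR2 stood at 4583 and 4869 CPM per kilobase in WT, 4700 and 4934 in AM, and 3766 and 7637 in 6WP. The ratio of RNR2 to RNR1 per kilobase was 4.87 and 4.73 in WT, 4.73 and 5.68 in AM, and 5.31 and 4.91 in 6WP. The 6WP libraries were above the WT libraries and between the AM libraries, and the highest ratio was in AM replicate 2. Group means of the log2 ratio differed by 0.09 for 6WP against WT, by -0.02 for 6WP against AM and by 0.11 for AM against WT.

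Within the rRNA counts, RNR1 made up 11.2% in WT replicate 1 (exact 95% binomial interval 11.0% to 11.3%) and 9.72% in AM replicate 2 (9.61% to 9.83%), the highest and lowest being 11.5% and 9.72%. Within 6WP the shares were 10.3% and 11.1%. These intervals cover counting error only, and the replicates of each group lay outside each other's interval.

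The RNR1 sequence is repeated in part in nuclear DNA. Of its 855 windows of 100 bases, the read length, 181 (21.2%) occur exactly elsewhere in hg38, and the longest such copy, on chromosome 13, is 219 bases long. For RNR2, 0 of 1460 windows occur elsewhere and the longest exact match, on chromosome 3, is 99 bases long. How reads with several positions were counted is not given in the sources used here, so part of the RNR1 reads may have been lost or moved in all libraries, and the ratio to RNR2 carries that uncertainty.

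The tRNA rows fell into a few that were counted and many that were not. Of 22 rows, 9 were above 1 CPM in every library, and these 9 are all on the plus strand (TRNL1, TRNI, TRNM, TRNW, TRND, TRNK, TRNG, TRNH and TRNT). The 8 minus-strand tRNA rows reached at most 1.15 CPM in any library. TRNN, TRNC, TRNY and TRNS2 were at 0 in every library, with exact nuclear copies at 82.0%, 36.4%, 30.9% and 0% of their read positions, and at these depths fewer than 3 counts cannot be told from none. Mitochondrial tRNA genes are 59 to 75 bases long, shorter than the 100-base read, so an untrimmed read on such a row also covered sequence next to it. For TRNV that sequence lies in RNR1 or RNR2, and for TRNS2 in TRNH or TRNL2, all of which have rows. How reads over several genes were counted is not given in the sources used here.

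The position of the counted rows is shown by the stretch at their start, written as 20 bases before the tRNA gene in lower case and its leading 12 bases in capitals, from hg38 on the plus strand. TRNL1 (leucine, chrM:3210-3241) follows RNR2, TRNI (isoleucine, chrM:4243-4274) follows ND1, TRNM (methionine, chrM:4382-4413) lies directly before ND2 and is preceded by the opposite strand of TRNQ, and TRNG (glycine, chrM:9971-10002) lies between COX3 and ND3.
TRNL1: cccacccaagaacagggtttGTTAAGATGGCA
TRNI: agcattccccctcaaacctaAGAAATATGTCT
TRNM: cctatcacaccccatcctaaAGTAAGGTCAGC
TRNG: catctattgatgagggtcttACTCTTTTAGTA
TRNW, TRNH and TRNT begin likewise at the base after ND2, ND4 and CYTB, TRNK begins 25 bases after COX2, and TRND lies directly before COX2. This did not hold for every such gene, since TRNR follows ND3 without a gap and was at only 0.38 to 1.13 CPM. TRNV also follows RNR1 without a gap, but it cannot be compared in this way, because an untrimmed read on it also overlapped RNR1 or RNR2.

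**Figure D2:**
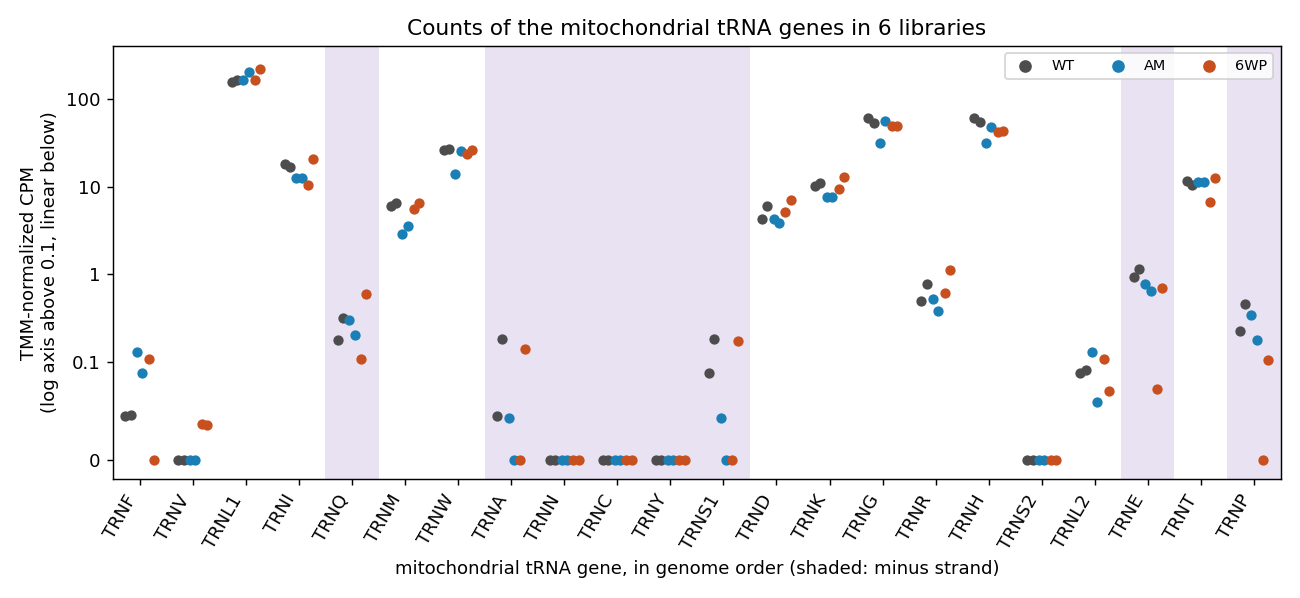
TMM-normalized CPM of the 22 mitochondrial tRNA genes in genome order in the WT, AM and 6WP libraries, each point a library, on an axis that is logarithmic above 0.1 and linear below, with minus-strand genes shaded. The 9 rows above 1 CPM in every library are all on the plus strand, and no shaded gene exceeds 1.15 CPM.

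TRNL1, the leucine tRNA between RNR2 and ND1, was at 157 and 165 CPM in WT, 163 and 201 CPM in AM, and 165 and 217 CPM in 6WP. The group ranges of AM and 6WP overlapped, and 6WP was above WT by 0.25 on the log2 scale (SE 0.16, edgeR adjusted p = 0.394). TRNI, which borders ND1, was at 17.9 and 16.7 CPM in WT, 12.4 and 12.5 CPM in AM, and 10.3 and 20.6 CPM in 6WP. As for the rRNAs, the 6WP replicates of TRNI lay on either side of all untreated libraries. TRNT, which borders CYTB, did the same, with 11.7 and 10.4 CPM in WT, 11.3 and 11.3 CPM in AM, and 6.69 and 12.4 CPM in 6WP.

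TRNG and TRNH behaved differently. TRNG was at 60.4 and 53.6 CPM in WT, 31.4 and 55.6 CPM in AM, and 48.5 and 49.0 CPM in 6WP. TRNH, which borders ND4, was at 60.3 and 54.0 CPM in WT, 31.0 and 48.0 CPM in AM, and 41.8 and 42.7 CPM in 6WP. Here the 6WP replicates were nearly equal and AM replicate 1 was the lowest library, as it was for TRNW with 13.8 CPM against 23.4 to 27.0 CPM in the other libraries. The difference of 6WP from WT was -0.23 for TRNG (SE 0.23, edgeR adjusted p = 0.604) and -0.44 for TRNH (SE 0.19, adjusted p = 0.228).

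TRNM, the methionine tRNA before ND2, was the only tRNA row called in the fit to all 6 libraries. It was at 5.98 and 6.48 CPM in WT, 2.88 and 3.53 CPM in AM, and 5.50 and 6.41 CPM in 6WP, so that both AM libraries lay below all others. It fell in AM against WT by 0.95 on the log2 scale (SE 0.21, edgeR adjusted p = 0.0223) and was higher in 6WP than in AM by 0.88 (SE 0.21, adjusted p = 0.0232). These values share the AM libraries, and the row held between 67 and 182 counts. Over the alternatives the adjusted p ranged from 0.000479 to 0.173 for the former and from 0.00156 to 0.170 for the latter. Without either AM library or either WT library neither call was kept, with adjusted p from 0.119 to 0.173 for AM against WT and from 0.0659 to 0.170 for 6WP against AM. Of the 167 positions at which a 100-base read can overlap TRNM, 51 have an exact copy in nuclear DNA. The same holds for 89 of 169 positions at TRNK, 62 of 168 at TRNI and 32 of 167 at TRND, and for 0 at TRNL1, TRNW, TRNG, TRNH and TRNT.

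Of the 11 tRNA rows that passed the filter on low counts, 0 were called in 6WP against WT, where 0 had an unadjusted p under 0.05 and the Wald test of DESeq2 also called 0. Leaving out either 6WP library raised the calls in that comparison, among the tRNA rows as over all genes. Nothing about the tRNA rows is read from this. Between 6WP and AM 1 of 11 was called, higher, beside 11.7% of all genes called higher and 9.68% called lower. Between AM and WT 1 of 11 was called, lower, beside 9.93% of all genes called lower and 7.74% called higher. With only the AM and WT libraries in the fit, 4 of 11 tRNA rows were called, beside 6620 of 14228 genes in all. The median difference over the 11 rows was -0.10 in 6WP against WT, 0.32 in 6WP against AM and -0.48 in AM against WT. TRNK (7.62 and 7.60 CPM in AM, 10.1 and 11.0 CPM in WT) and TRND were among the rows with lower AM means, but did not pass the test in the fit to all libraries.

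**Figure D3:**
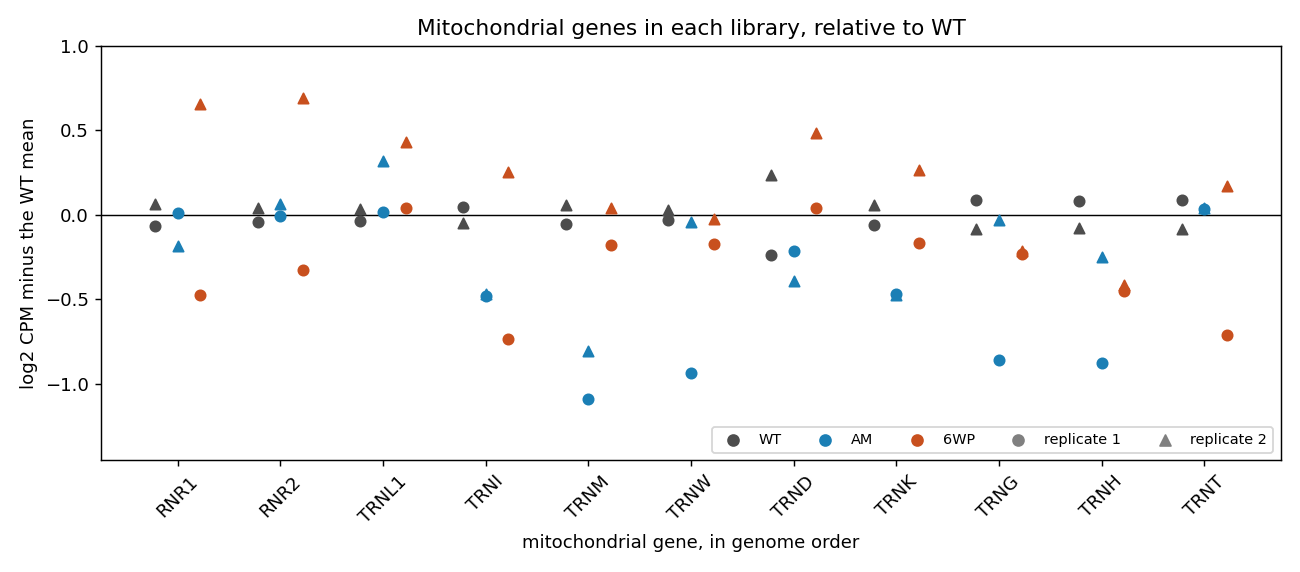
Log2 CPM minus the mean of the WT libraries for RNR1, RNR2 and the 9 tRNA rows above 1 CPM in every library, in genome order, with circles for replicate 1 and triangles for replicate 2 of each group. RNR1, RNR2, TRNI and TRNT split the 6WP replicates by 0.88 to 1.13, while TRNG and TRNH place them within 0.03 of each other.

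In every one of these 11 rows, 6WP replicate 2 was at or above replicate 1. The difference was 1.13 for RNR1, 1.02 for RNR2, 0.99 for TRNI and 0.88 for TRNT. It was 0.44 for TRND, 0.43 for TRNK and 0.39 for TRNL1, 0.22 for TRNM and 0.15 for TRNW, and 0.03 or less for TRNH and TRNG. The rows of this genome thus did not move by a common amount between these libraries. An untrimmed read on a tRNA row also covered sequence next to it, so this is not shown for the RNAs themselves. The Pearson r with the mean rRNA level over the 6 libraries, which share depth and scaling, ran from 0.81 for TRNI and 0.72 for TRNT to -0.03 for TRNG and -0.04 for TRNH, as a description.

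Outside mitochondrial DNA, the 5 genes of 12026 whose log2 CPM followed the mean of RNR1 and RNR2 most closely over the 6 libraries were EPHA10 (r = 0.995), ARF3 (0.987), ZBTB43 (0.984), C22orf29 (0.984) and ZNF805 (0.983). Their spread was smaller than that of the rRNAs. ARF3, a small GTPase of the Golgi, was at 424 and 521 CPM in the 6WP libraries and between 452 and 472 CPM in the untreated ones. These values order the genes over 6 libraries and carry no test.

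The summed level of RNAs without a poly(A) tail differed between replicates in WT as well as in 6WP. Of 29 such RNAs, 27 had a row, 8 of these were at 0 in every library (the cytoplasmic rRNA rows RNA18S5, RNA28S5 and RNA45S5 among them) and 8 were tested, with 0 called in each comparison. Their summed level was 27.8 and 57.8 CPM in WT, 26.4 and 22.8 CPM in AM, and 43.5 and 17.4 CPM in 6WP, so that the 6WP library with more mitochondrial rRNA had less of these. The WT libraries also differed in these sums, with RNR1 1.09-fold and RNR2 1.06-fold apart between them. In 6WP each of the 8 tested RNAs was lower in replicate 2 than in replicate 1. Their median log2 level relative to the WT mean was 0.21 in 6WP replicate 1 and -1.09 in 6WP replicate 2. That median was -0.99 and 0.99 in WT replicates 1 and 2, and -0.45 and -1.26 in those of AM. Members of the list did not all go the same way in WT. RN7SK was at 5.04 and 24.5 CPM and RN7SL2 at 11.3 and 7.86 CPM in WT replicates 1 and 2, both chosen after their values were seen. TK1 and MKI67 were also chosen after their values were seen, and no list of such genes was counted. TK1, the cytosolic thymidine kinase, was at 147 and 49.6 CPM and MKI67, the Ki-67 proliferation antigen, at 64.6 and 31.6 CPM in 6WP replicates 1 and 2. In WT TK1 was at 126 and 116 CPM and MKI67 at 43.9 and 45.4 CPM. In AM TK1 was at 175 and 214 CPM and MKI67 at 83.8 and 98.0 CPM. The part of these differences in the levels of RNR1 and RNR2 was not tested.

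The nuclear genes that transcribe mitochondrial DNA and handle its RNA were closer between the 6WP replicates than RNR1 and RNR2 were, in the 8 genes named for every comparison. The level of TFAM, which packages mitochondrial DNA and starts its transcription, was 79.5 and 70.1 CPM in WT, 94.2 and 86.1 CPM in AM, and 74.6 and 64.7 CPM in 6WP. It differed by -0.10 in 6WP against WT (SE 0.13, edgeR adjusted p = 0.670) and by -0.37 in 6WP against AM (SE 0.12, adjusted p = 0.0682). POLRMT was at 46.8 and 33.1 CPM and TFB2M at 92.2 and 93.1 CPM in the 6WP libraries. LRPPRC, which with SLIRP protects mitochondrial mRNAs, was at 209 and 223 CPM in 6WP, against 179 to 195 CPM in the untreated libraries, and was not called (edgeR adjusted p = 0.320 against WT and 0.133 against AM). SLIRP was at 50.7 and 48.0 CPM in WT and rose in AM to 73.4 and 75.3 CPM (log2 difference 0.59, SE 0.14, adjusted p = 0.0298), with 63.6 and 48.1 CPM in 6WP. The poly(A) polymerase MTPAP and the degradosome genes PNPT1 and SUPV3L1 were called in no comparison.

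By role, 0 of 10 genes of mitochondrial DNA transcription were called in 6WP against WT, where 1.63% of all genes were called higher and 1.37% lower. The counts in this and the next paragraph stand beside 11.7% of all genes called higher and 9.68% lower in 6WP against AM, and 7.74% higher and 9.93% lower in AM against WT, and single calls in such short lists are not read beyond these shares. In 6WP against AM 1 was higher, C10orf2 (0.47, SE 0.12, edgeR adjusted p = 0.0262). C10orf2 is the mitochondrial DNA helicase, an enzyme of replication that was listed here under transcription. In AM against WT 1 was higher, MTERFD2. Of 21 genes of RNA processing and modification, 4 were lower in 6WP than in AM and 1 was higher, PTCD1. The 4 were ELAC2 (-0.46, SE 0.11, edgeR adjusted p = 0.0231), HSD17B10, TRMU and FTSJ2. HSD17B10 is a subunit of RNase P, TRMU a tRNA modifying enzyme and FTSJ2 a methyltransferase of the 16S rRNA. In AM against WT 3 of the 21 rose, TRMU, HSD17B10 and FTSJ2. PTCD1 was also the only one of the 21 called in 6WP against WT, but its row held only 3 and 4 counts in WT and 29 and 38 in 6WP, and on hg38 it overlaps a readthrough gene. Of 14 genes of RNA stability, polyadenylation and decay, 0 were called in 6WP against WT, 2 were lower in 6WP than in AM (FASTKD5 and PDE12) and 1 was higher in AM than in WT (SLIRP).

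Of 19 genes of mitochondrial DNA replication and nucleotide supply, 1 was higher in 6WP than in WT, SLC25A36, a pyrimidine nucleotide carrier (0.65, SE 0.13, edgeR adjusted p = 0.0404). Against AM, SLC25A36 and TOP1MT were higher in 6WP and 3 were lower, MPV17, DNA2 and POLG, with POLG, the DNA polymerase, at -0.46 (SE 0.12, adjusted p = 0.0297), and in AM against WT MPV17 alone rose. Of 20 genes listed as translation factors, OXA1L was lower in 6WP than in AM and GFM1 and COA3 were higher in AM than in WT. Between 6WP and WT 0 of these 20 were called. Of 10 regulators of mitochondrial biogenesis MYC was called, higher in 6WP than in AM (0.65, SE 0.16, adjusted p = 0.0246) and lower in AM than in WT.

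Nuclear genes encode the proteins that assemble with the 12S and 16S rRNAs into the mitochondrial ribosome. Of 81 tested, the transcripts of 18 rose, 1 fell and 62 did not pass the test in AM against WT, where 7.74% of all genes were called higher and 9.93% lower, with a median difference of 0.35 beside -0.0023 over all genes. Between 6WP and AM 0 rose and 12 fell (11.7% and 9.68% of all genes), with a median of -0.18 beside 0.05, and in 6WP against WT 1 rose (MRPL54) and 0 fell, with a median of 0.13 beside 0.01. MRPL18 was at 80.5 and 75.1 CPM in WT, 125 and 125 CPM in AM, and 76.3 and 73.8 CPM in 6WP, which placed both AM libraries above all others. In the same AM libraries the log2 level of RNR1 relative to the WT mean was 0.01 and -0.18 and that of RNR2 -0.01 and 0.06. Of the nuclear subunits of complex I, 7 of 37 were higher in AM than in WT, beside 7.74% of all genes, and 6 of 37 were lower in 6WP than in AM, beside 9.68% (NDUFA9, -0.91, SE 0.11, edgeR adjusted p = 0.00363). For complex III 1 of 9 was called in each of these comparisons (UQCR10), for complex IV 1 of 12 was higher in AM than in WT and 2 of 12 were lower in 6WP than in AM (COX6B1 and COX5A), and for complex II 0 of 4 were called. In lists of this size 1 call is near the share over all genes. No subunit of these complexes was called in 6WP against WT.

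Over the 165 tested nuclear genes of mitochondrial gene expression together, 3 (1.82%) were higher and 0 lower in 6WP against WT, close to the 1.63% of all genes called higher. In 6WP against AM 4 were higher and 22 lower, beside 11.7% and 9.68% of all genes. Under upper quartile scaling these were 8 and 16, where 3338 of 14672 genes were called in either direction and the median over all genes was 0.14. In AM against WT 26 were higher and 1 lower, beside 7.74% and 9.93%. Counts of this kind depended on each library. They fell when an AM or a WT library was left out and rose when a 6WP library was left out. The calls over all genes did the same in every comparison, so nothing is read from these shifts about the 165 genes. By library, the median of these genes relative to WT was 0.20 in 6WP replicate 1 and -0.01 in 6WP replicate 2, where the median of RNR1 and RNR2 was -0.40 and 0.68.

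**Figure D4:**
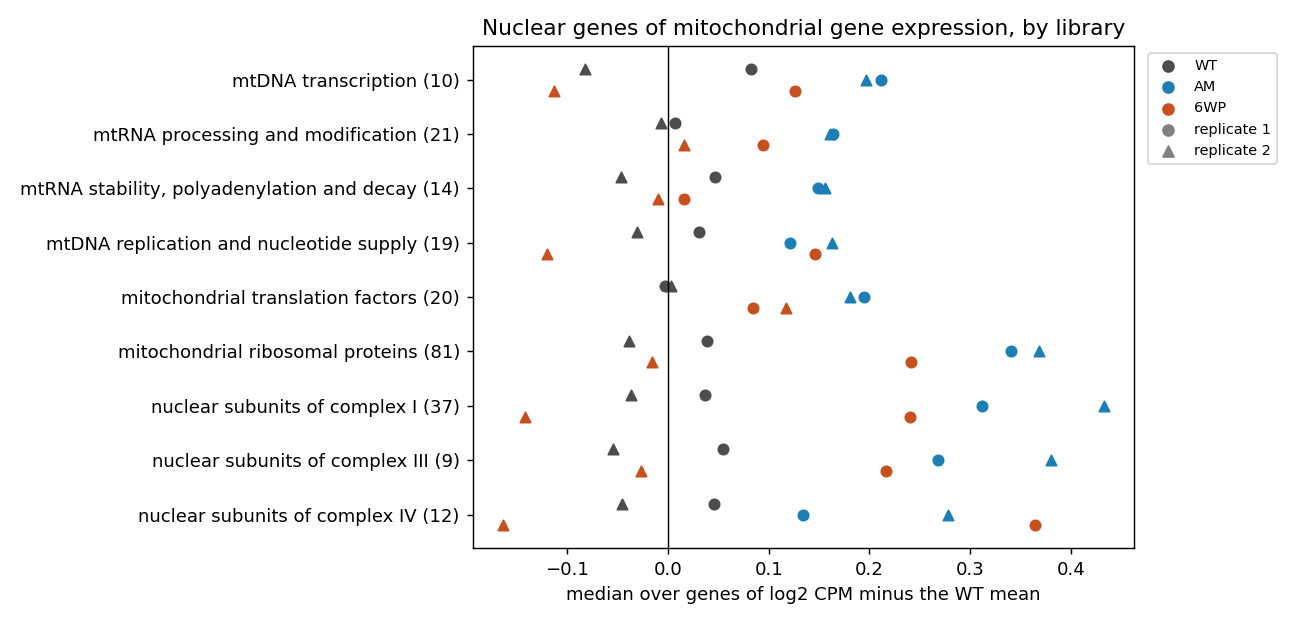
Median over the genes of 9 nuclear lists (number tested in brackets; the biogenesis regulators and complex II are not drawn) of log2 CPM minus the WT mean, in each library, with circles for replicate 1 and triangles for replicate 2. The AM libraries lie to the right of both WT libraries in each of these 9 lists, and the 6WP replicates lie on either side of 0 in 7 of the 9 lists, replicate 1 on the right.

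Some of the 11 prostate markers were called, in comparisons where 17.7% (AM against WT) and 21.3% (6WP against AM) of all genes were called. In AM against WT 1 was higher (KLK2) and 5 were lower, among them KRT8 (-0.78, SE 0.15, edgeR adjusted p = 0.0132), and in 6WP against AM 3 were higher and 1 lower, with FOLH1 at 1.11 (SE 0.17, adjusted p = 0.0067). In 6WP against WT 0 of 11 were called. The part of these differences in the mitochondrial rows was not tested.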

How the data were processed

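Total RNA was sequenced as 100-base single-end reads after a stranded TruSeq preparation, and whether poly(A) RNA was selected or rRNA depleted is not given in the sources used here. According to the submitters' processing notes the tools were STAR 2.5.3a on hg38, featureCounts 1.5.3 (Subread), StringTie 1.3.3 and edgeR 3.22.3 in R 3.5.0. The gene annotation, the strand setting and the handling of reads with several genes or positions are not given there. The deposited values are raw counts per gene symbol that the authors had not normalized, in 6 libraries, and 0 columns were left out.

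Genes were kept by filterByExpr with the 3 groups (14672 of 29804), scaled by TMM and tested, two-sided, in a quasi-likelihood model without covariates on all 6 libraries (R 4.3.3, edgeR 4.0.16), with Benjamini-Hochberg adjustment over all tested genes and a threshold of 0.05. CPM is TMM-normalized, and log2 CPM used a prior count of 2. Depth ran from 21222201 to 35311945 counts, so that RNR1 and RNR2 had a counting error far below the spread of replicates. Scripts were tested on simulated data. Gene positions and sequences were taken from hg38, GENCODE and RefSeq, and the mitochondrial chromosome of 16569 bases was searched for exact nuclear copies at every 100-base window.

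The members and the lists of nuclear genes and markers were chosen with earlier results of these data known. The text could name all mitochondrial rows, 8 fixed nuclear genes, up to 3 called genes per list and comparison with the smallest p, and the 5 genes closest to the rRNAs. Other genes named are said to have been chosen after their values were seen, or complete a count of 5 or fewer, and single markers of some cell types are not reported here. The planned ratio of rRNA to mRNA was not computed, because no mRNA gene of the list was found among the symbols of the count table. The ratio of RNR2 to RNR1 and the tRNA rows were added after the data were seen. Alternatives were DESeq2 size factors and its Wald test (1.42.0), upper quartile scaling, library size only, TMM without mitochondrial rows, no filter, at least 10 counts in every library, only the 2 groups compared, a replicate block and each library left out.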

Additional observations from a re-analysis of the deposited data

How the results depend on the processing

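The levels of RNR1 and RNR2 in 6WP are limited by 2 libraries that differ about 2-fold, not by depth. Their median difference ranged from -0.43 to 0.66 in 6WP against WT, from -0.41 to 0.70 in 6WP against AM and from -0.12 to 0.05 in AM against WT over all alternatives, the extremes in the 6WP comparisons coming from leaving out 6WP replicate 2 and 6WP replicate 1. In AM against WT it moved from -0.03 to -0.12 under upper quartile scaling. The log2 ratio of RNR2 to RNR1 cannot move with the scaling. Without AM replicate 2 it turned from 0.11 to -0.020 in AM against WT and from -0.02 to 0.11 in 6WP against AM, and the planned ratio of rRNA to mRNA was not run. Of the 165 nuclear genes, the 3 called in 6WP against WT became 7 by the Wald test, 0 with only the 2 groups compared and 0 to 52 when single libraries were left out. The 26 called in 6WP against AM became 40, 8 and 0 to 88, and the 27 called in AM against WT became 92 with only the 2 groups compared and 0 to 96 when single libraries were left out. Of the tRNA rows, the 0 called in 6WP against WT became 0 to 5 when single libraries were left out. In 6WP against AM the 1 called became 2 under upper quartile scaling, 0 with only the 2 groups compared and 0 to 5 with single libraries left out, and in AM against WT 4 and 0 to 4. With single libraries left out the difference of TRNM between 6WP and WT, -0.06, ranged from -0.21 to 0.027, turning without 6WP replicate 1. A lone library left in a group was assumed to vary like the others. Calls over all genes with only the 2 groups compared or single libraries left out are given in the next paragraph.

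With a replicate block, 2, 25 and 25 of the 165 nuclear genes and 0, 1 and 1 tRNA rows were called in the comparisons of 6WP with WT, 6WP with AM and AM with WT, and 393, 3069 and 2485 genes in all, where the fit without it called 440, 3131 and 2593. Deviations of libraries with the same number correlated at 0.04 (WT and AM), 0.09 (WT and 6WP) and -0.02 (AM and 6WP). Whether these libraries share more than a number cannot be told from correlations over all genes. Over all genes, 6WP against WT gave 894 calls without a filter, 1114 by the Wald test, 96 with only the 2 groups compared and 0 to 3870 with single libraries left out. In 6WP against AM these were 1309 with only the 2 groups compared and 116 to 6807, and in AM against WT 6620 and 67 to 6654. The cause of these shifts was not tested.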

Other observations

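The 10 rows of MTRNR2L genes, nuclear genes that resemble RNR2, held at most 3 counts in any library. TRNE, the glutamate tRNA on the minus strand next to ND6, was chosen after its values were seen. It held 21 and 25 counts in WT, 18 and 22 in AM, and 2 and 20 in 6WP. Its low library was 6WP replicate 1, the library in which RNR1 and RNR2 were also lowest, and the difference of 6WP from WT was -1.40 on the log2 scale (SE 0.68, edgeR adjusted p = 0.272), which did not pass the test. TRNP, which is also on the minus strand and was not tested, held 5 and 10 counts in WT, 8 and 6 in AM, and 0 and 3 in 6WP.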
